A study of Homo sapiens with 9 samples.

Results

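The genes described here are 30 human genes whose products keep transposable elements silent or limit what their transcripts can do, read as gene loci and not as proteins. They were taken from a fixed list of symbols, each with its RefSeq span on GRCh38 plus 1 kb on each side, out of 19970 protein-coding genes on chromosomes 1 to 22 and X. The measurement is the length of that window lying under DNA:RNA hybrid peaks, and where along the gene the covered bases lie. The cells were SH-SY5Y, a human neuroblastoma line long kept in culture, infected with a lentivirus carrying a short hairpin RNA, then selected and kept in puromycin. The knockdown cells, shTDP43, carry a hairpin against TDP-43, a nuclear protein that binds nucleic acids and is the product of TARDBP, and shNC cells carry a control hairpin. DNA:RNA immunoprecipitation sequencing (DRIP-seq) with the antibody S9.6 gave 1 library after RNase H and 3 untreated libraries for shTDP43, and likewise 1 and 3 for shNC. RNase H removes the RNA strand of a hybrid, so the treated libraries are negative controls. An input library was not analysed here. Each genotype is labelled with 1 hairpin name, and whether replicates are separate infections is not stated, so p-values measure only the spread between these libraries, which may be technical.

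Transposable elements are held down in steps. KRAB zinc finger proteins bind an element and recruit TRIM28, which brings SETDB1, an enzyme that methylates histone H3; the HUSH complex and MORC ATPases act on young LINE elements and retroviral DNA; HP1 proteins read the methylated histone, and histone chaperones keep it in place through replication. Elements that are still transcribed meet helicases, editing enzymes and nucleases that act on their RNA or their cDNA. An R-loop is a DNA:RNA hybrid with a displaced DNA strand, known to form at CpG-rich gene starts and at gene ends.

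The 6 untreated libraries differed in how much of the genome their peaks covered. Peaks covered 91.6, 128.4 and 130.9 Mb in shTDP43 replicates 1 to 3, against 142.0, 129.8 and 125.5 Mb in shNC. After RNase H they covered 5.66 Mb in shTDP43 and 10.5 Mb in shNC. The background pileup, a relative depth read back from the peak values, was lowest in shTDP43 replicate 1 among the untreated libraries, at 1.05 against 1.62 to 2.01 in the other 5. The lists hold no read counts. Scaling to the median total multiplied covered lengths of shTDP43 replicate 1 by 1.41, and a locus covered equally in all 6 libraries takes a log2 change of 0.20 from that scaling alone. No pair of libraries was a duplicate, with at most 0.722 of their joint covered bases shared. TARDBP itself had 6.82, 9.87 and 10.2 kb covered in shTDP43 and 14.2, 10.3 and 12.7 kb in shNC (log2 change −0.28 ± 0.12 SE, adjusted p = 0.443), which does not measure the knockdown. Of 10 adrenergic neuroblastoma genes 9 carried peaks in all 6 untreated libraries and TH carried none, and 0 of 4 blood and 0 of 4 liver genes did.

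At their starts the silencing genes carried peaks in nearly every library. Promoter windows of 300 bases, 250 before and 50 after an annotated start, were available for 25 of the 30 genes from RefSeq (GRCh38.p14). Of these 25, 22 (88%) lay under a peak in all 6 untreated libraries, and 18 of them over their whole length. Among all 15811 protein-coding genes with such a window the share was 37.9%, and among those covered enough to be tested it was 57.2%. The windows of these 25 genes had a median GC content of 65.7% and 30 CpG dinucleotides, against 62.7% and 22 over all genes. The 3 exceptions were ATF7IP and SAMHD1, with no covered base in any untreated library (as in 42.7% of all promoter windows), and MPHOSPH8, covered in all but shTDP43 replicate 1 and shNC replicate 3.

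The nucleic acids had been cut with BsrGI (TGTACA), EcoRI (GAATTC), HindIII (AAGCTT), SspI (AATATT) and XbaI (TCTAGA) before immunoprecipitation. These palindromes were searched in every promoter window, so both strands are read at once. At least 1 of the 5 sites was present in 4 of the 25 windows (16%), against 17.8% of all promoter windows. Those 4 windows are shown because they place the recognition site, in capitals, beside the peak edges. They are CBX3 (chr7:26201193-26201492, plus strand), MORC3 (chr21:36319947-36320246, plus strand), SUV39H1 (chrX:48695304-48695603, plus strand) and EHMT2 (chr6:31897649-31897948, minus strand), all from RefSeq GRCh38.p14 and written 5′ to 3′ along the gene's strand.
CBX3: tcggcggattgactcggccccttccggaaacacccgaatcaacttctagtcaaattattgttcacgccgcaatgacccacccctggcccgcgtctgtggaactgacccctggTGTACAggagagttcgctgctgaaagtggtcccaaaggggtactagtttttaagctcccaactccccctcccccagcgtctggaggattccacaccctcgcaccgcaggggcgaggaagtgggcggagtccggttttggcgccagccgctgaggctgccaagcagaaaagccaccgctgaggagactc
MORC3: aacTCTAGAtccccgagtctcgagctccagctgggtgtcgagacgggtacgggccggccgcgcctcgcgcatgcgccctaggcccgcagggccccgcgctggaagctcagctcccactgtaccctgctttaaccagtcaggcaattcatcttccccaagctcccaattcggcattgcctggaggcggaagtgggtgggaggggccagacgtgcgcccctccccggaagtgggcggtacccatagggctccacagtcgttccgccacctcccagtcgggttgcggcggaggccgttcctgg
SUV39H1: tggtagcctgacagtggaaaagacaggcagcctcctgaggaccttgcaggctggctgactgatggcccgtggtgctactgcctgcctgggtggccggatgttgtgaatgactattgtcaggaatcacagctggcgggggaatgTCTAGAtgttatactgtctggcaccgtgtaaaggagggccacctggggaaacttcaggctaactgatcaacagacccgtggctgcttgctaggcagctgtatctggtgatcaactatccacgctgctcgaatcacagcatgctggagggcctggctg
EHMT2: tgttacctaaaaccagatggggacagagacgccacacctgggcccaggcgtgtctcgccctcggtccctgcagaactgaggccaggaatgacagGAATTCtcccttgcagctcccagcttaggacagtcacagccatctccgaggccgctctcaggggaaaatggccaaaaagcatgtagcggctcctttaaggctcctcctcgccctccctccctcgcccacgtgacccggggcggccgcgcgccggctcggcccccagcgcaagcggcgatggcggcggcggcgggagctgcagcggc
In CBX3, the gene of HP1 gamma, the BsrGI site lay at −138 bp from the gene start, and a peak began at base 26201306, the second base of the site, in all 6 untreated libraries. In MORC3, an ATPase of the MORC family, the XbaI site lay at −247 bp and a peak began at base 36319951, again the second base of the site, in all 6. In SUV39H1, an enzyme that trimethylates H3K9, the XbaI site lay at −107 bp and a peak began at its second base, 48695448, in all 6. Coverage of these windows was therefore the same in every untreated library, at 187 bases in CBX3, 296 in MORC3 and 156 in SUV39H1. In EHMT2, which encodes G9a, an enzyme that dimethylates H3K9, the EcoRI site lay at −156 bp and no untreated library had a peak edge in it, as 1 peak spanned it in each.

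**Figure D1:**
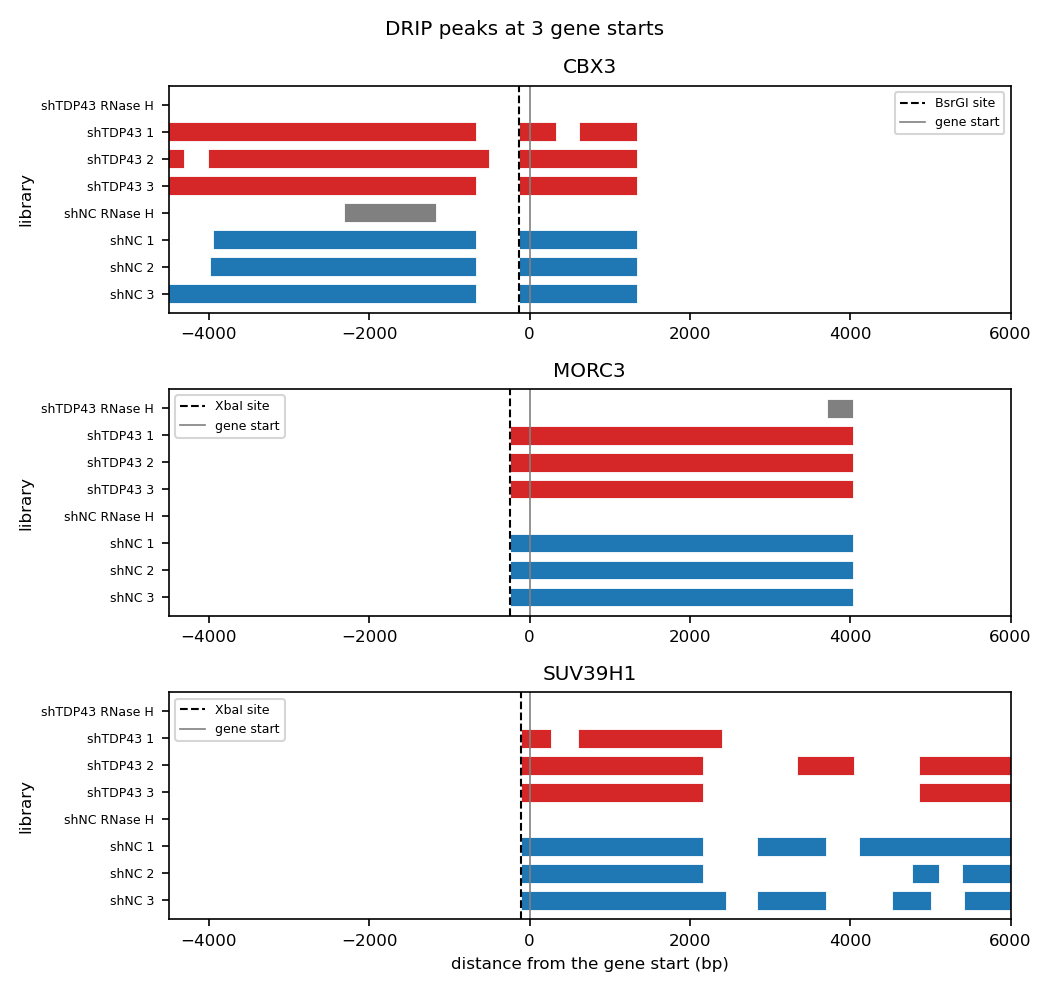
Peaks near the starts of CBX3, MORC3 and SUV39H1, as bars along the distance from the gene start in bp, with 1 row per library (red shTDP43, blue shNC, grey RNase H-treated). In each untreated library a bar begins at the dashed restriction site, at −138 bp in CBX3, −247 bp in MORC3 and −107 bp in SUV39H1.

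The 2 windows without peaks are shown to set their letters beside those of the covered ones. They are ATF7IP (chr12:14365432-14365731, plus strand) and SAMHD1 (chr20:36951659-36951958, minus strand), from the same source, in lower case with no site to mark.
ATF7IP: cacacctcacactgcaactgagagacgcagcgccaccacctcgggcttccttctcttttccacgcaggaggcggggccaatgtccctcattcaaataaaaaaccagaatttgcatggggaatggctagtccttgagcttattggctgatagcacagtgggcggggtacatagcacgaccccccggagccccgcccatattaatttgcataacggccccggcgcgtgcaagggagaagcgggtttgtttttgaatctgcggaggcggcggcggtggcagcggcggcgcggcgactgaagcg
SAMHD1: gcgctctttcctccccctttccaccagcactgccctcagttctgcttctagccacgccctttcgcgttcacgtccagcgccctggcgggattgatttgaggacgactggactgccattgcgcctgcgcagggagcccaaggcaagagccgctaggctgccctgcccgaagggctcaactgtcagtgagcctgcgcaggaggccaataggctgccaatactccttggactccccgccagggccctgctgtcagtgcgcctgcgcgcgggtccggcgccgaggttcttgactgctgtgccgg
The ATF7IP window has a GC content of 59.3% with 24 CpG dinucleotides, and the SAMHD1 window 65.7% with 22. ATF7IP has 6 annotated promoters, and none of them had a covered base in any untreated library. ADAR, by contrast, has a start 19200 bp inside its span, whose window was covered in all 6 libraries, while the downstream windows of PPHLN1 (5631 bp inside) and TASOR (19219 bp inside) had no covered base.

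Identical peak edges were common in these genes beyond those 3 starts. A set of 56 edges inside the 30 windows fell on the same base in all 6 untreated libraries, which was 11.4% to 14.1% of a library's edges there and 8.22% to 10.4% of its edges in all coding gene windows. Over all promoter windows of the genome, 32.5% to 45.7% of an untreated library's edges lay inside one of the 5 sites, although the sites make up 0.452% of the bases searched. The share was 17.9% in the RNase H-treated shTDP43 library and 11.1% in the treated shNC library. Where edges were shared, covered lengths could be equal to the base. Sites were searched only in promoter windows, so whether cut sites give the equal lengths below was not tested. In the window of 2 kb on each side of the start, 9 of the 27 silencing genes that passed a filter of 200 bp there had the same length covered in all 6 libraries, against 18.9% of all genes. Those lengths were 2858 bp in SUMO2, 2663 in MORC2, 2246 in MORC3, 2757 in ZNF638, 3337 in CBX5, 2778 in SUV39H2, 3495 in CHAF1A, 3173 in MOV10 and the whole 4000 in TREX1.

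Over the gene windows, coverage ranged from all of TREX1 to none of APOBEC3B. TREX1, a 3′ exonuclease that degrades cytosolic DNA including retroelement cDNA, had its whole window of 3816 bp covered in all 6 untreated libraries, by a single peak of 7791, 9827 and 10373 bp in shTDP43 and 9820, 11036 and 10130 bp in shNC. EHMT2 followed with a mean of 80.9% and DAXX, a chaperone of histone H3.3, with 79.9%. At the low end of the 27 genes tested, ATF7IP, the partner that stabilises SETDB1, had 1.65% covered. Among the 27 genes tested, short genes had the larger shares. Spearman's rho between span length and percent covered was −0.734, and between span length and covered length 0.304. These values only describe genes that share the same libraries. Percent covered has the window length in its denominator, and a filter of 500 bp covered keeps a short gene only at a higher share. Below that filter, the short APOBEC3B and APOBEC3C had 0% and 3.34% covered, and the longer SAMHD1 0.488%.

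**Figure D2:**
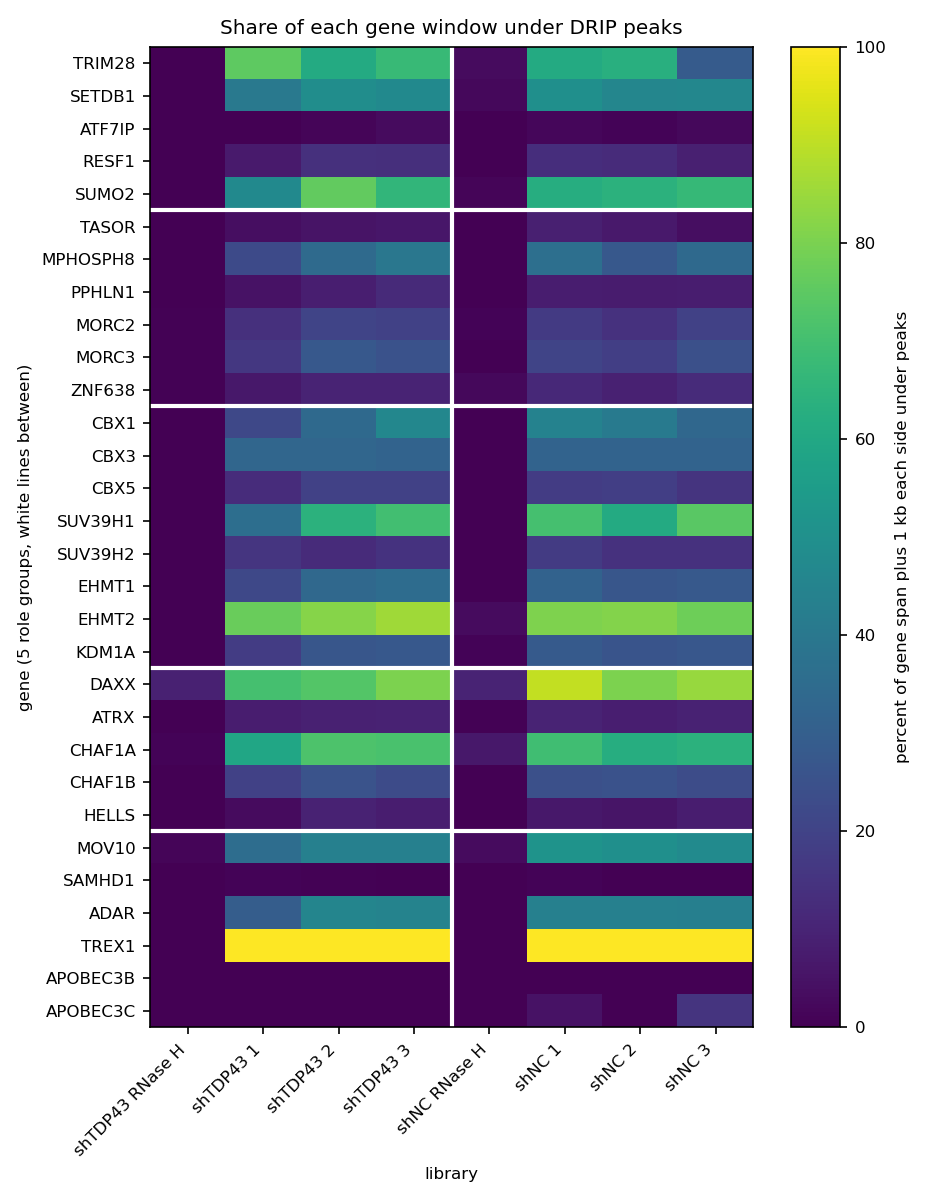
Percent of each gene window under peaks (colour, 0 to 100) for 30 genes in rows, grouped by role, and 8 libraries in columns. TREX1 is at 100% in all untreated libraries, APOBEC3B at 0, and both RNase H columns are close to 0.

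The test needed an average of 500 bp or more under peaks over the untreated libraries, and 27 of the 30 genes passed. The other 3 are restriction factors. SAMHD1, which hydrolyses the nucleotides needed for reverse transcription, had 733, 420 and 0 bp covered in shTDP43 and 718, 0 and 0 bp in shNC. APOBEC3C, a cytidine deaminase, had 0 in all 3 shTDP43 libraries and 397, 0 and 1226 bp in shNC, and its paralog APOBEC3B had 0 in all 6. The groups overlapped in SAMHD1 and APOBEC3C.

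No silencing gene was called for a change of covered length between shTDP43 and shNC. Of the 27 genes tested, 0 were called higher and 0 lower by limma at an adjusted p under 0.05, against 0.172% of 12808 genes called higher and 0.75% called lower. At an unadjusted p under 0.05 there were 2 (7.41%), EHMT1 and CHAF1A, against 11.5% of all genes. Adjusted p-values of the 27 ran from 0.200 to 0.990. The log2 change was above 0 in 20 of 27 (74.1%), against 56.5% of all genes, with a median of 0.14 against 0.05. By role it was above 0 in 4 of 5 TRIM28 and SETDB1 genes, 4 of 6 HUSH and MORC genes, 5 of 8 H3K9 and HP1 genes, 5 of 5 chaperones and remodellers and 2 of 3 restriction factors. Without scaling it was above 0 in 9 of 27 (33.3%), against 21.9% of all genes, with a median of −0.06 against −0.15. The unscaled log2 changes of TRIM28, MORC3, MORC2 and CHAF1A were 0.48, 0.09, 0.08 and 0.04. Without shTDP43 replicate 1 the medians were 0.08 and 0.03, and EHMT1 alone was called (log2 change 0.29 ± 0.05 SE, adjusted p = 0.0443, against up to 1 over the other alternatives). In that fit 0.445% of all genes were called higher and 1.3% lower, more than with all 6 libraries.

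**Figure D3:**
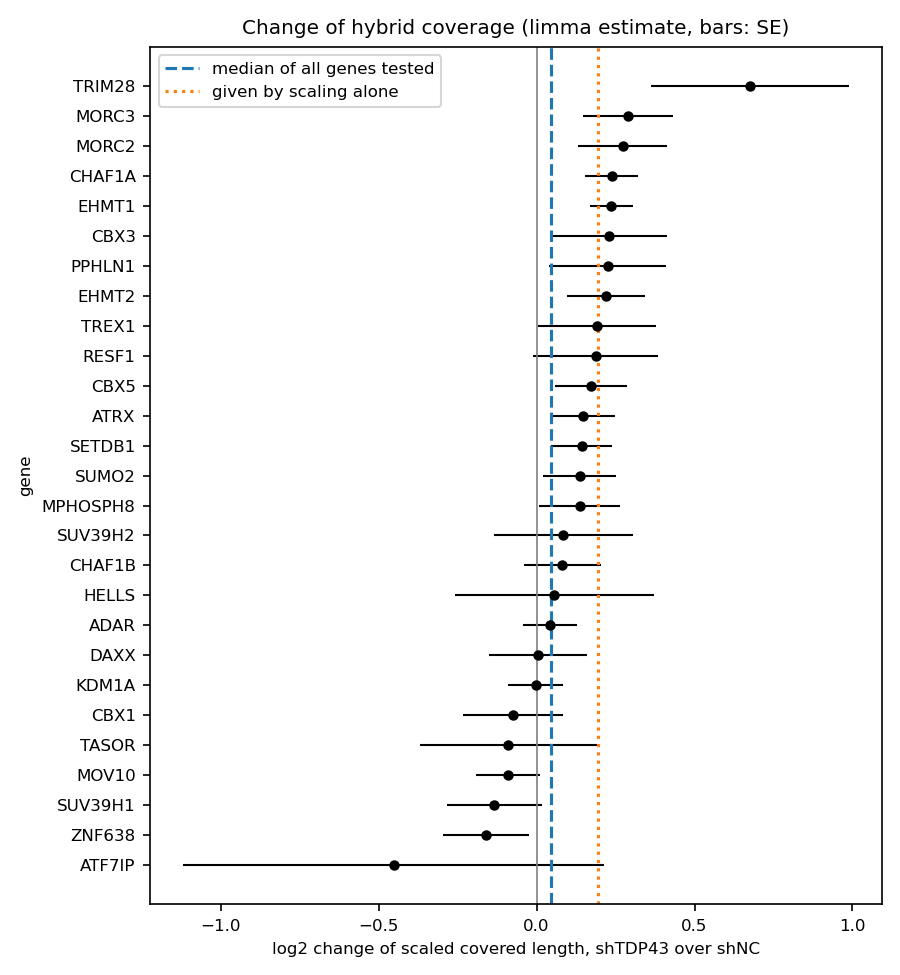
Log2 change of scaled covered length, shTDP43 over shNC, for the 27 genes tested (points, limma estimates; bars, SE). The dashed line is the median of all genes tested (0.05) and the dotted line the change that scaling alone gives a locus covered equally in all libraries (0.20); no gene passed the threshold.

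Among the TRIM28 and SETDB1 genes, the corepressor TRIM28 had the largest log2 change of the 27. Its covered length was 6.49, 5.29 and 5.83 kb in shTDP43, against 5.30, 5.47 and 2.48 kb in shNC. The groups overlapped, and shNC replicate 3 was the lowest. The log2 change was 0.67 ± 0.31 SE (adjusted p = 0.470) and lay between 0.35 and 0.88 when single libraries were left out. SETDB1, which trimethylates H3K9, had 16.4, 19.9 and 19.2 kb in shTDP43 and 20.2, 18.5 and 18.7 kb in shNC (0.14 ± 0.10 SE, adjusted p = 0.634). The strongest SETDB1 peak lay in the last 10% of the gene in all 6 libraries, 36472 bp from the start in 4 of them. RESF1, a SETDB1 partner in the silencing of mouse endogenous retroviruses, SUMO2, the modifier that links TRIM28 to SETDB1, and ATF7IP had log2 changes of 0.19, 0.14 and −0.45, with adjusted p-values of at least 0.634. In ATF7IP the covered bases lay near the gene end, at a mean relative position of 0.86 ± 0.01 in shTDP43 and 0.82 ± 0.04 in shNC (SD, n = 3 each), where 0 is the gene start and 1 the gene end.

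No HUSH or MORC gene was called. TASOR, MPHOSPH8 and PPHLN1 encode the HUSH core, MORC2 is an ATPase that HUSH recruits, and ZNF638 brings HUSH to unintegrated retroviral DNA. MORC3 had 9.58, 16.1 and 14.7 kb covered in shTDP43 and 12.1, 10.8 and 14.2 kb in shNC (log2 change 0.29 ± 0.14 SE, adjusted p = 0.494). MORC2 had 6.39, 9.40 and 8.85 kb in shTDP43 and 7.80, 6.59 and 8.74 kb in shNC (0.27 ± 0.14 SE, adjusted p = 0.527). In both genes the groups overlapped, with shTDP43 replicate 1 the lowest library. The strongest MORC2 peak had its summit 344 to 346 bp before the start in all 6 libraries. By the authors' −log10 q it was stronger than 99.3% to 99.7% of its list. Each span was divided into 10 equal bins from start to end. Bin 10 of MORC2 was covered over 86.7% on average in shTDP43 and 90.8% in shNC, and bin 1 over 15.2% in each untreated library, while the bins between averaged at most 10.7% in either genotype.

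ZNF638 and PPHLN1 each held a region with a peak in all 3 shTDP43 libraries and in no shNC library. Merging the untreated peaks gave 334 regions in the 30 genes, of which these were the only 2 of that kind, and 0 were of the opposite kind. Over all coding genes the shares were 0.248% and 1.18% of 85163 regions. The ZNF638 region, chr2:71347372-71347944 (hg38), lies 15876 bp inside the gene span, and 387, 312 and 504 of its 573 bp were covered in shTDP43. The PPHLN1 region, chr12:42362347-42362760, had 321, 413 and 414 of 414 bp covered. With peaks of −log10 q under 5 removed, no region of this kind was left. The count was 11 without shTDP43 replicate 1, 8 without shTDP43 replicate 3 and 4 without shNC replicate 2. With a library left out the criterion is looser by construction, and no share over all coding genes is given for these counts. Over its whole window ZNF638 had 6.70, 10.5 and 10.3 kb covered in shTDP43 and 12.1, 9.71 and 12.9 kb in shNC (log2 change −0.16 ± 0.14 SE, adjusted p = 0.634). PPHLN1 had 6.18, 10.3 and 14.9 kb in shTDP43 and 9.75, 9.34 and 9.78 kb in shNC (0.23 ± 0.19 SE, adjusted p = 0.634), so that the shTDP43 libraries lay on both sides of the shNC ones. TASOR and MPHOSPH8 had log2 changes of −0.09 and 0.14.

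Regions shared by every library held most of the coverage. Of the 334 regions, 105 (31.4%) had a peak in all 6 untreated libraries, against 25.6% of regions in all coding genes, and they made up 78.3% of the merged length, against 73.2%. Their median length was 3255 bp. Another 120 regions (35.9%) were seen in 1 library only, against 37.8% of regions in all coding genes, with a median of 387 bp. EHMT1 held the most regions, 64, of which 21 were in all 6 libraries, and TREX1 held 1.

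EHMT1 had the smallest p of the 27 genes and the longest coverage. It encodes GLP, which dimethylates H3K9 together with G9a, and spans 217.1 kb of chromosome 9 from 137619005 to 137836127. Its covered length was 47.5, 73.8 and 77.1 kb in shTDP43 (66.1 ± 16.2 SD, n = 3) and 68.9, 59.0 and 61.0 kb in shNC (63.0 ± 5.26 SD, n = 3). Unscaled the groups overlapped, since shTDP43 replicate 1 was the lowest of the 6. Scaled to the library totals they were 67.0, 74.2 and 76.0 kb in shTDP43 and 62.7, 58.7 and 62.8 kb in shNC, which do not overlap. The log2 change was 0.24 ± 0.07 SE (adjusted p = 0.200), and 0.04 ± 0.22 SE without scaling. CHAF1A and EHMT2 were the other genes whose scaled shTDP43 libraries all lay above the shNC ones, and 0 lay all below, against 8.14% and 10.2% of all genes. Without scaling 0 silencing genes had all shTDP43 libraries above all shNC ones and 1, MOV10, had them all below, against 0.796% and 14% of all genes.

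EHMT1 also had the smallest p of the silencing genes for the position of its coverage. The mean relative position was 0.623, 0.616 and 0.619 in shTDP43 and 0.652, 0.650 and 0.649 in shNC. The shift was −0.031 ± 0.0022 SE, towards the start in shTDP43, and the limma adjusted p of 0.0894 missed the threshold. This adjusted p ran from 0.0758 to 0.203 when single libraries were left out, and up to 0.856 over the other alternatives. Bin 3 of EHMT1 was covered over 15.4%, 29.0% and 23.2% in shTDP43 and 16.6%, 13.6% and 9.67% in shNC. One region there, chr9:137663743-137668211, had 2151, 2883 and 2992 bp covered in shTDP43 and 1605, 1692 and 1358 bp in shNC. It was picked from the 64 regions of EHMT1 after its values were seen. In the next region, chr9:137668408-137670170, the groups overlapped, at 824, 442 and 459 bp in shTDP43 and 1080, 312 and 376 bp in shNC. Most coverage lay in bins 8, 9 and 10, which averaged 54.1%, 55.2% and 50.5% in shTDP43 and 56.4%, 61.1% and 51.5% in shNC. For position, 0 of 26 silencing genes were called in either direction, against 0.00888% of 11265 genes in each. TRIM28 had a shift of 0.054 ± 0.014 SE along the coordinate (adjusted p = 0.408) and ZNF638 one of −0.048 ± 0.013 SE towards its start (adjusted p = 0.429).

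**Figure D4:**
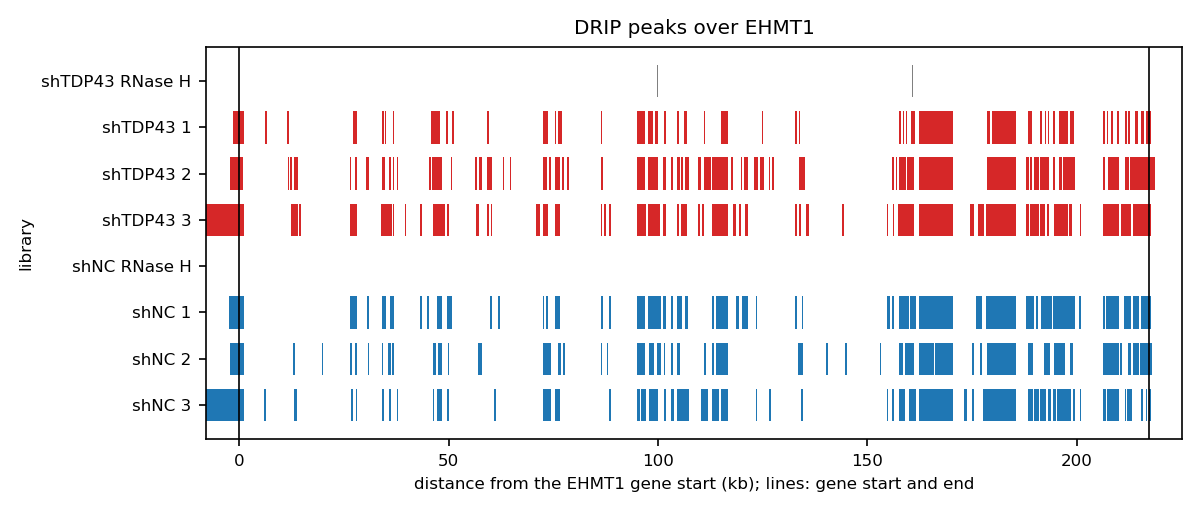
Peaks over EHMT1 in each library, as bars along the distance from the gene start in kb (red shTDP43, blue shNC, grey RNase H-treated; vertical lines mark gene start and end). The long peaks of bins 8 to 10 appear in all 6 untreated libraries, and 2 short peaks are left after RNase H in shTDP43 and 0 in shNC.

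None of the other H3K9 and HP1 genes was called. EHMT2 had 15.4, 16.3 and 17.1 kb covered in shTDP43 and 16.1, 16.3 and 15.5 kb in shNC (log2 change 0.22 ± 0.12 SE, adjusted p = 0.557), with a peak of exactly 12130 bp in each library. The EHMT2 change is close to the 0.20 that scaling alone gives, and it was 0.09 without shTDP43 replicate 1 and 0.03 without scaling. CBX3 had 4.69, 4.65 and 4.49 kb in shTDP43 and 4.49 kb in each shNC library, and its log2 change of 0.23 ± 0.18 SE is likewise close to what scaling alone gives. CBX1 and CBX5, the genes of HP1 beta and alpha, had log2 changes of −0.07 and 0.17, SUV39H1 and SUV39H2 −0.13 and 0.08, and KDM1A, a histone H3K4 demethylase, −0.003, all with adjusted p-values of at least 0.626.

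Among the chaperones and remodellers, CHAF1A had the smallest p, which was the second smallest of the 27 genes. It encodes the large subunit of CAF-1, which deposits histones behind the replication fork. Its covered length was 29.7, 36.2 and 35.7 kb in shTDP43 and 34.8, 31.3 and 32.3 kb in shNC, and shTDP43 replicate 1 was again the lowest. The log2 change was 0.24 ± 0.08 SE (adjusted p = 0.311). This change is close to the 0.20 that scaling alone gives, and it was 0.16 without shTDP43 replicate 1 and 0.04 without scaling. Bins 8 and 9 of CHAF1A were fully covered in all 6 libraries. ATRX, the remodeller that works with DAXX, spans 281.3 kb and had 23.1, 26.4 and 27.6 kb covered in shTDP43 and 28.8, 24.1 and 26.7 kb in shNC (0.15 ± 0.10 SE, adjusted p = 0.634). DAXX, CHAF1B, the partner of CHAF1A, and HELLS, a remodeller needed for DNA methylation at repeats, had log2 changes of 0.005, 0.08 and 0.06. HELLS carried its coverage at the start, with none in bins 6 to 10 in any untreated library.

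Among the genes that act on element RNA and cDNA, ADAR and MOV10 carried most of their coverage towards the gene end. ADAR, which edits double-stranded RNA made by inverted repeats, had 14.1, 21.7 and 21.5 kb covered in shTDP43 and 20.9, 20.9 and 20.7 kb in shNC (log2 change 0.04 ± 0.09 SE, adjusted p = 0.810). MOV10, an RNA helicase that restricts LINE retrotransposition, had 10.1, 12.3 and 12.3 kb in shTDP43 and 14.5, 14.1 and 13.5 kb in shNC. The MOV10 groups did not overlap before scaling, as in 14% of all genes with shTDP43 lower, and on the scaled measure the log2 change was −0.09 ± 0.10 SE (adjusted p = 0.669). In ADAR, MOV10 and SETDB1 the strongest peak lay in the last 10% of the span or past the gene end in all 6 libraries. As a percent of the span, its summits lay at 102 to 107 in ADAR, 97.0 to 113 in MOV10 and 91.3 to 94.8 in SETDB1. The windows of MOV10 and SETDB1 overlap RHOC and CERS2. Which gene these end peaks belong to cannot be told from the peak lists. In 9 of the 24 genes with a known strand and peaks in all 6 it lay within 2 kb of the start in each: HELLS, KDM1A, MORC2, MORC3, PPHLN1, RESF1, SUMO2, SUV39H2 and TASOR.

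**Figure D5:**
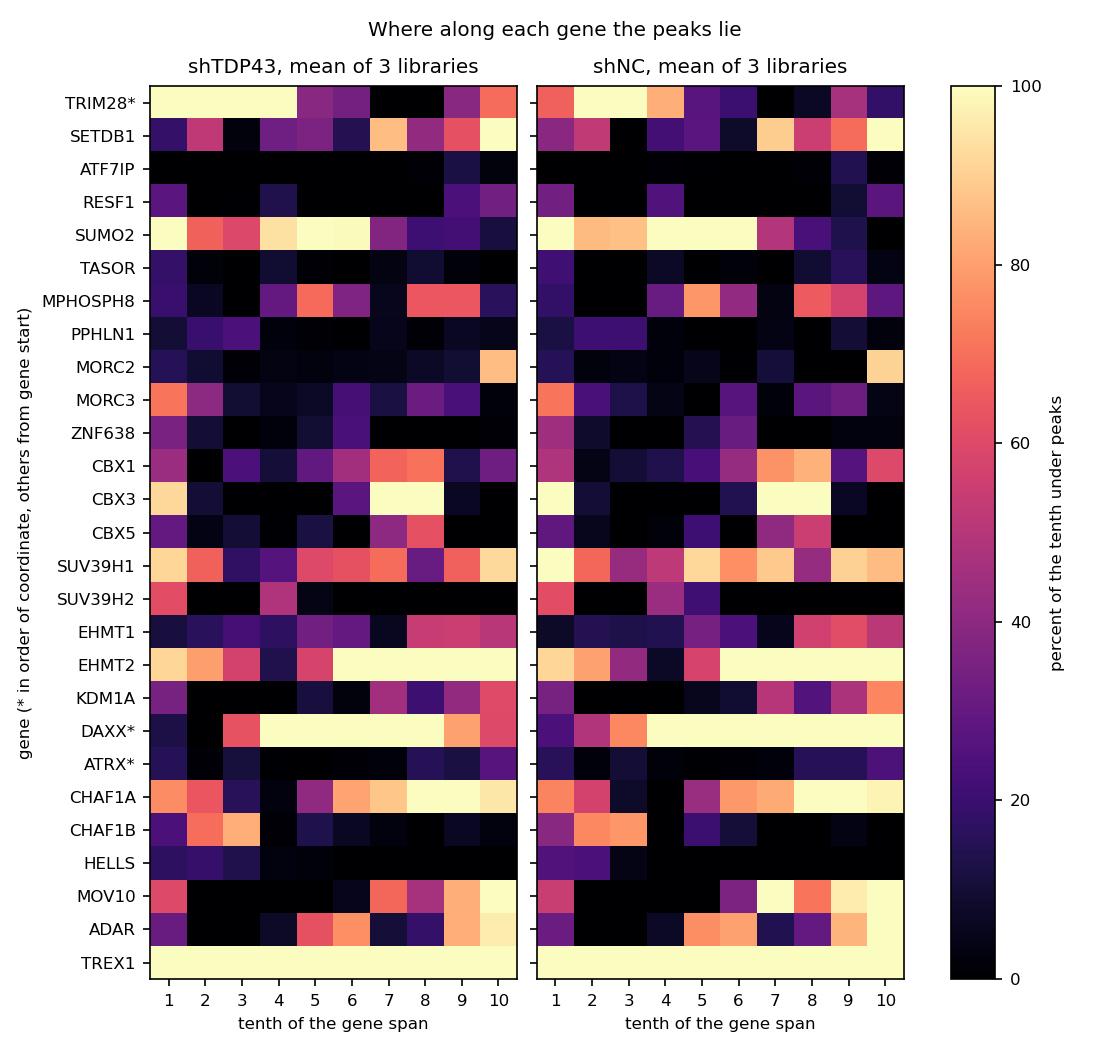
Percent of each of 10 equal bins of the gene span under peaks (colour, 0 to 100), mean of 3 untreated libraries, shTDP43 left and shNC right, for the 27 genes tested. Coverage in HELLS and SUV39H2 lies towards the start, that of MORC2 and ADAR is highest in bin 10, and TREX1 is at 100% throughout.

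At the starts themselves no difference was called. In the window of 2 kb on each side of the start, limma called 0 of 27 silencing genes in either direction, against 0% of 11571 genes, and 1 (TRIM28, log2 change 0.60 ± 0.26 SE, adjusted p = 0.622) had an unadjusted p under 0.05, against 6.48% of all genes. TRIM28 had 6204, 5492 and 5807 bp covered in shTDP43 and 5636, 5325 and 2793 bp in shNC, in windows around both gene ends. The 27 include APOBEC3C, at −1.24 ± 1.18 SE, which was below the filter over its whole window. The log2 change was above 0 in 23 of 27 (85.2%), against 61.9% of all genes, and the 9 genes with equal lengths took 0.19 each from the scaling.

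After RNase H little coverage of these genes was left in either genotype. In the treated shTDP43 library they had 3.66 kb covered in sum, against 273.6, 379.3 and 392.9 kb in the untreated ones, which is 1.05% of the untreated mean, where the whole library kept 4.84%. In the treated shNC library they had 11.5 kb, against 378.4, 340.3 and 353.5 kb, or 3.23%, where the whole library kept 7.94%. All 27 genes were reduced to at most 0.25 of their lowest untreated library in shTDP43 and in shNC, against 93.3% and 90.8% of all genes. No covered base was left in 19 of 27 in shTDP43 and 16 of 27 in shNC, against 77% and 64.1% of all genes. With 1 treated library per genotype there is no replicate check. The background pileup was 0.991 in the treated shTDP43 library and 0.936 in the treated shNC one, against 1.05 to 2.01 in the untreated libraries. How much of the loss came from lower depth was not tested.

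The peaks that were left were short and mostly lay on untreated ones. In shTDP43 there were 10 in 8 genes, 277 to 594 bp long, and all 10 overlapped an untreated peak. In shNC there were 21 in 11 genes, 283 to 2130 bp long, of which 19 did. Of the treated peaks, 6 of 10 in shTDP43 and 9 of 21 in shNC overlapped the strongest peak of their gene in at least 4 untreated libraries. No share over all genes is given for these overlaps. Long peaks are overlapped more easily, and the strongest peak of CHAF1A was 35374 bp long in shTDP43 replicate 3. In MORC3 the treated shTDP43 peak ended at base 36324230, the end of the untreated peak of 4280 bp in all 6 libraries. In MORC2 the treated shTDP43 summit lay 344 bp before the start, within 2 bp of the untreated summits. EHMT1 kept 0.723 kb in shTDP43 and 0 in shNC, CHAF1A 0.457 kb in shTDP43 and 3.16 kb in shNC, and TREX1, fully covered before treatment, 0 in both. In DAXX, ZNF638 and CHAF1A a treated peak of shTDP43 overlapped one of shNC.

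Of the 30 windows, 18 overlap another coding gene by coordinate, and a peak in the overlap counts for both genes. EHMT1, MORC3, ATRX and ADAR are among the 12 that do not, although the strongest ADAR peak had its summit past the gene end. CBX3 and HNRNPA2B1, CBX5 and HNRNPA1, SUV39H2 and DCLRE1C, MPHOSPH8 and PSPC1, TASOR and CCDC66, and MORC2 and TUG1 overlap in this way. So do SETDB1 with CERS2, MOV10 with RHOC, CHAF1A with UBXN6, TRIM28 with CHMP2A, TREX1 with ATRIP and SHISA5 and EHMT2 with C2 and SLC44A4. Hybrids of either gene cannot be told apart in the peak lists. Among 72 other genes of the same pathways, such as DNA methyltransferases, Polycomb proteins and further restriction factors, 59 were tested and 0 were called in either direction, with a log2 change above 0 in 37 and a median of 0.08. The 3 smallest p-values were those of ZNF93, a KRAB zinc finger protein that binds LINE elements (0.49 ± 0.16 SE, adjusted p = 0.273), CHD5, a chromatin remodeller (−0.18 ± 0.06 SE, adjusted p = 0.311), and SIRT1, a deacetylase (0.46 ± 0.16 SE, adjusted p = 0.315).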

How the data were processed

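Peak lists of 8 DRIP-seq libraries were used. Each library has its own deposited list. Bowtie2 2.4.4, MACS2 2.2.6, SAMtools and the build hg38 are named in the submitters' processing notes. Settings and the control of the peak calling were not given in the sources used here. A deposited peak carries a fold (ratio over local background), −log10 p and −log10 q, a score, and the summit offset, as the authors' peak caller gave them. These served only to filter or rank peaks within a list.

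For each gene and library the covered length of the span plus 1 kb on each side was taken, scaled to the median library total, as log2 of the length plus 100 bp. It was fitted with limma 3.58.1 (lmFit, eBayes with trend, R 4.3.3; overlaps in Python 3.11.15), with Benjamini-Hochberg adjustment over all genes passing a filter (mean covered length of 500 bp or more over the span, of 200 bp or more in the start window; 500 bp in every library for position). Strand came from the RefSeq promoter table, and genes without one (TRIM28, DAXX, ATRX, APOBEC3B, APOBEC3C) were read along the coordinate, with start windows at both ends. Kilobases are printed unscaled unless stated. Regions were merged where peaks touched, and a library was present from 1 bp. Interval sums and the limma step were tested on simulated data.

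Values in every library are given for the 6 genes with the smallest p, the 5 with the longest coverage, those below the filter and those holding a region of 1 genotype, and further examples were chosen after their values were seen. The 30 genes and the other lists were chosen with earlier results of these data known. Alternatives covered scaling, filters, pseudocount, flanks, peak thresholds, the replicate block and leaving out each library.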

Additional observations from a re-analysis of the deposited data

How the results depend on the processing

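The counts of silencing genes called for covered length, start coverage and position stayed at 0 under scaling by cyclic loess or none, pseudocounts, filters, flanks, equal peak numbers and −log10 q thresholds of 5 and 10. Leaving out single libraries gave 0 to 1 called higher for covered length, the 1 being EHMT1 without shTDP43 replicate 1. Over all genes the calls moved more: 22 higher and 96 lower became 1 and 19 without scaling, 3 and 30 at a −log10 q threshold of 5, 2 and 30 at 10, 44 and 135 with equal peak numbers, 14 and 61 without a variance trend, 40 and 191 with a pseudocount of 1000 bp, and from 3 and 9 (without shNC replicate 1) up to 57 and 166 (without shTDP43 replicate 1) with single libraries left out. Removing untreated peaks that overlap a treated peak of the same genotype gave 4 genes higher for covered length (EHMT2, MOV10, SETDB1, TRIM28), 7 higher and 2 lower at the start, and 3 higher and 1 lower in position. Over all genes this removal called 1070 higher and 669 lower for covered length, 896 and 363 at the start, and 408 and 363 in position. By construction this removal is unequal between the genotypes. The treated list is longer in shNC, while in EHMT1 and MORC3 only shTDP43 held a treated peak. In MORC2 the treated peak lay on the strongest untreated peak in shTDP43 but not in shNC. Removing peaks under a treated peak of either genotype, an alternative chosen after seeing the data, gave 0, with 26 and 52 of all genes. Reversed under the first removal were the log2 changes of EHMT1 (−0.015), CHAF1A (−0.29), MORC3 (−0.47) and MORC2 (−0.20) and the position shift of TRIM28 (−0.226), under the second CHAF1A (−0.11), and with peaks of −log10 q under 10 removed TRIM28 (−0.43); beyond that construction the cause was not tested. Regions of shTDP43 alone numbered 0 at a −log10 q of at least 5, with 1 of shNC alone, in RESF1. Leaving out single libraries, chosen after seeing the data, gave 2 to 11 of shTDP43 alone and 0 to 3 of shNC alone. For shTDP43 alone the count was 11 without shTDP43 replicate 1, 8 without shTDP43 replicate 3 and 4 without shNC replicate 2. With 2 libraries against 3 the criterion is looser by construction, and no share over all coding genes is given for these region counts. With the replicate block the counts stayed at 0 for the silencing genes, with 9 higher and 65 lower among all genes. Same-numbered libraries did not deviate together (correlations −0.171, 0.062 and −0.172), so the numbers were not read as pairs. Differences in short peaks cannot be told apart from depth in shTDP43 replicate 1 and the treated libraries, the shallowest by background pileup, and fully covered loci cannot show an increase.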
